A study of Homo sapiens with 6 samples.

Results

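Heat shock proteins and DnaJ chaperones were compared between LINC00115 knockdown (KD) and control libraries labelled as breast cancer stem-like cells. The genes were taken from the deposited count table by symbol alone, as the HSP families (Hspa, Hspb, Hspd, Hspe, Hsph and Hsp90) and the DnaJ families (Dnaja, Dnajb and Dnajc). This gave 68 of the 22989 genes in the table, of which 61 had enough counts to be tested among 13497 genes. The symbol rule also took in Hspbp1, Hspbap1 and Hspb11, which carry the name but are not folding chaperones of these families.

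The study asked what the long non-coding RNA LINC00115 does in paclitaxel (PTX)-resistant stem-like cells of MDA-MB-231, an established human triple-negative breast cancer line. All 6 libraries were labelled as PTX-resistant MDA-MB-231 BCSC, which the study obtained by sorting for aldehyde dehydrogenase activity. The KD group held 3 libraries of LINC00115 knockdown cells (shRNA), and the control group held 3 libraries that the labels call WT. The study's text gives a control shRNA for its other knockdown assays, and what the sequenced control cells carried was not given in the sources used here. The KD libraries were named as sh115-1 to sh115-3 while the study's text describes shRNAs of the first and second of these names and gives sh115-2 for its sequenced knockdown, so the labels and the text differ on the hairpin. Nothing states that replicates came from separate cultures. The p-values below therefore set the difference between the groups against the spread between these libraries, which may be technical.

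Library totals lay between 36979221 and 38799331 counts. The gene symbols were those of mouse gene models although the cells were labelled human. Of these symbols 4648 began with Gm, 1129 ended in Rik and 16 equalled a human symbol as written. Apart from case, 67 of the 68 members equal a human symbol. The species that the reads came from was not tested. No row was named LINC00115, so the knockdown itself could not be read from this table. Vim (3420 CPM, the normalized level used throughout, in control and 3740 CPM in KD) and Cd44 (911 and 879) were high in both groups, and Axl was at 731 and 896 CPM. Vim and Axl were higher in every KD library (log2 fold change 0.13 and 0.29), while the Cd44 levels overlapped. Aldh1a1, an aldehyde dehydrogenase gene, was low, with 12, 8 and 17 counts in control and 52, 39 and 41 in KD, and was called higher (log2 fold change 1.82, adjusted p = 0.000925), while Aldh1a3 and Sox2 had at most 4 counts in any library. Of 4 epithelial markers 3 were higher in every KD library (summed 598 to 608 against 958 to 1010 CPM), and of 3 receptors that triple-negative cells lack or hold at low level 2 were, Esr1 (0.698 against 2.56 CPM) and Erbb2 (17 against 27.6 CPM). All 7 lung markers were higher in every KD library than in any control library, with a summed level of 1.57 to 1.77 CPM in control and 71.7 to 82.0 CPM in KD, and 5 of them (Scgb1a1, Sftpc, Sftpa1, Sftpb and Sftpd) had no count in any control library. Of 6 kidney markers 4 were higher and 1 was lower in every KD library (summed 8.28 to 8.56 against 21.4 to 25.5 CPM), and Kap, Umod and Aqp2 had no control count. Among 5 endothelial and fibroblast markers 1 was higher (Cdh5, 0.221 against 57.8 CPM) and 2 were lower in every KD library. The lower ones were Dcn (3.93 against 1.62 CPM) and Pdgfrb (0.83 against 0.608 CPM). The 6 leukocyte markers summed to 0.423 to 0.637 CPM in control and 0.290 to 0.724 CPM in KD, with Cd3e at 0. The epithelial, receptor, lung, kidney, Vim, Axl, Aldh1a1, Cdh5 and Dcn levels differed between the same groups that every result below compares. Their part in the results was not tested. In bulk RNA, fewer cells of a type and less RNA per cell cannot be told apart.

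Chaperones bind unfolded protein and return it to the folding pathway, and cells keep separate sets of them in the cytosol, the endoplasmic reticulum (ER) and the mitochondria. HSP70 proteins do this in cycles of ATP hydrolysis that are started by DnaJ (HSP40) partners and reset by nucleotide exchange factors such as the HSP110 proteins, HSP90 proteins act later on clients such as kinases and steroid receptors, and small HSPs hold unfolded protein without ATP. In the cytosol the inducible members are driven by heat shock factor 1 (HSF1) through heat shock elements in their promoters, and in the ER by the unfolded protein response through ER stress response elements.

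To show what these elements look like, promoter windows were read from the human RefSeq table of build GRCh38.p14 (300 bases around each gene start, most of them upstream) and matched to the members by symbol apart from case. Windows were found for 61 of the 68 members. The letters searched were GAANNTTC or TTCNNGAA for a heat shock element of 2 units, GAANNTTCNNGAA or TTCNNGAANNTTC for 3 units (every such match also holds the 2-unit letters) and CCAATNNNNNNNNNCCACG for the ER stress response element, on both strands. Below are the stretches holding the matches of 4 cytosolic genes, of which the upper pair had higher and the lower pair lower levels in KD, in 5′ to 3′ direction of the gene with the matches in capitals.
Hspa8 (chr11:123062167-123062378, minus strand): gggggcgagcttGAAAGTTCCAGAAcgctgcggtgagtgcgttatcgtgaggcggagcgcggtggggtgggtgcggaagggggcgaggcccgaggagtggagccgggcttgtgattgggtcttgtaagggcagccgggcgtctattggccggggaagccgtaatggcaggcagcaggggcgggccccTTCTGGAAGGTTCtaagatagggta
Hspb1 (chr7:76302479-76302510, plus strand): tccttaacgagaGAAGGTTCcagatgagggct
Hspb6 (chr19:35757206-35757251, minus strand): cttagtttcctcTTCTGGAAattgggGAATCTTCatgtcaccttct
Hspa1b (chr6:31827621-31827652, plus strand): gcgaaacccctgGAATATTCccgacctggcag
The ER stress response element was found in the windows of both leading ER chaperones, of which Hsp90b1 had a match on each strand.
Hspa5 (chr9:125241379-125241421, minus strand): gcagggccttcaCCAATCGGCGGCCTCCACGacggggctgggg
Hsp90b1 (chr12:103930204-103930351, plus strand): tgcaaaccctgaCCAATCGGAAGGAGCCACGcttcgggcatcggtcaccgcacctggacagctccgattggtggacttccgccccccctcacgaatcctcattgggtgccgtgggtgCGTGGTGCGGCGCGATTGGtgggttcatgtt

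The 2-unit heat shock element was present in 11 members (18.0% of those matched) and in 13.7% of all 27305 promoter windows. Of the 9 of these members that were tested, 4 had risen in KD (Hspa8, Hspa9, Hspb1 and Hspb8), 3 had fallen (Dnajb6, Hspa1b and Hspb6) and Dnaja1 and Dnajc15 did not pass the test. The 3-unit form was present in Dnaja1, Dnajb6 and Hspa8 (4.92% of the members matched) and in 0.487% of windows. The ER stress response element was present in Hspa5 and Hsp90b1 (3.28% of the members matched) and in 0.0806% of windows. Members with a match to the 2-unit letters thus had differences of both signs, while 36.7% of all genes rose and 36.7% fell. The share of members with that match was close to the share of all windows. For the 3-unit form and the ER stress response element the member share was higher, on 3 and 2 members. Dnajb1, Hsph1 and Bag3, named below as HSF1-inducible genes or an HSF1 target, held no match of these letters. A match describes the letters of the human window only, and the counts were listed under mouse-style symbols.

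To determine whether chaperone mRNA levels differed between the groups, the quasi-likelihood test of edgeR was run on the counts, and p-values were adjusted by Benjamini-Hochberg across all 13497 genes. At an adjusted p-value under 0.05, 26 members rose (42.6% of those tested, against 36.7% of all genes tested) and 23 fell (37.7%, against 36.7% of all genes), while 12 did not pass. With a fold change over 2 as a further requirement, 6 members were called higher (9.84%, against 10.2% of all genes) and 2 were called lower (3.28%, against 9.98% of all genes). The 6 libraries did not overlap between the groups for 51 members (83.6%, against 75.6% of all genes). The counts of members that rose or fell were thus close to those of the whole table. The median log2 fold change over the members was 0.03 and that over all genes was -0.0061. Most differences were small, with 37 members (60.7%) under 0.5 in size on the log2 scale, against 53.8% of all genes.

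**Figure D1:**
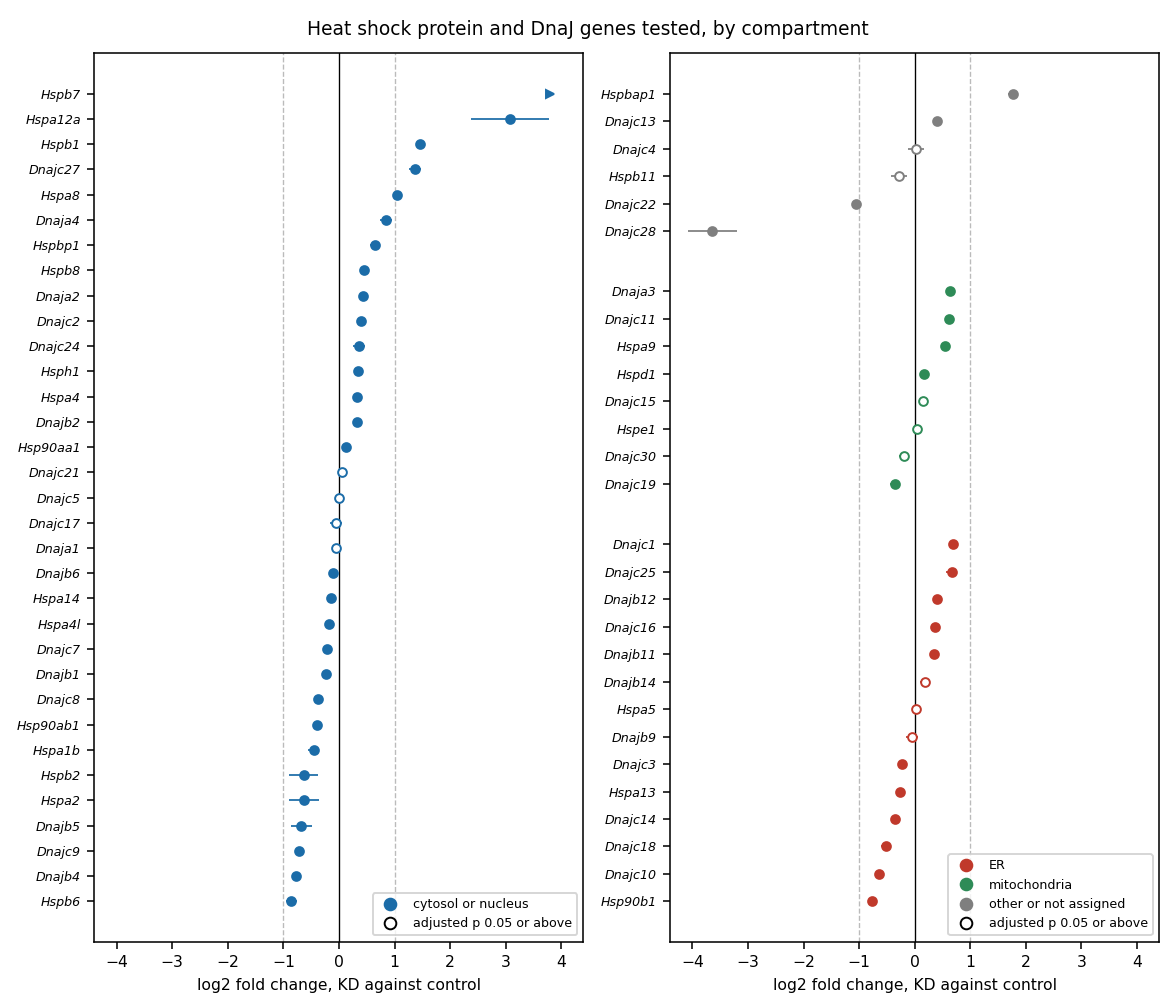
Log2 fold change of KD against control (horizontal axis) for each of the 61 tested members, in order of size within each compartment. Points are estimates with bars of 1 standard error, open points have an adjusted p of 0.05 or above, dashed lines mark a fold change of 2, and the triangle for Hspb7 lies beyond the axis. Higher and lower members were mixed in each compartment, and Hspb7 and Dnajc28 lay farthest out.

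In the cytosol and nucleus 15 of 33 tested members rose (45.5%) and 14 fell (42.4%, against 36.7% of all genes in each direction), with 5 called higher (15.2%, against 10.2% of all genes) and none called lower (against 9.98%). Their median log2 fold change was 0.0094. The largest difference in CPM among the members was that of Hspa8, the constitutive HSP70 that serves general folding and clathrin uncoating. Its level was 1130, 1310 and 1290 CPM in the control libraries and 2500, 2650 and 2560 CPM in the KD libraries. All KD libraries lay far above all control libraries, and the log2 fold change was 1.05 ± 0.04 (SE, n = 3 per group, adjusted p = 2.39e-23). Without control replicate 1 it was 0.98, just under the fold threshold. Processed pseudogene copies of Hspa8 and of several other abundant chaperones can share reads with their genes, and how such reads were counted was not given in the sources used here.

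Of the stress-inducible HSP70 genes, Hspa1b was at 17.0, 15.8 and 14.3 CPM in control and 11.5, 12.2 and 10.7 CPM in KD, without overlap, and fell by 0.45 on the log2 scale (SE 0.10, adjusted p = 0.000165). Its near-identical neighbour Hspa1a had 0, 1 and 6 counts in control and 0, 74 and 49 counts in KD, a spread within the KD group as wide as that between the groups, and it was not tested. The summed counts of the KD libraries were 17.3 times those of control after scaling (95% exact interval 8.15 to 44.0, counting error only). Because reads can be divided between these genes arbitrarily, they were also added together, which gave 642, 596 and 545 counts in control and 445, 523 and 456 in KD. The sum fell by 0.32 on the log2 scale (adjusted p = 0.00499). Within a library the ratio of Hspa8 to Hspa1b counts was 80.1 ± 12.3 in control and 224 ± 12.5 in KD (SD, n = 3 each).

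Among the other cytosolic HSP70 proteins, Hspa2, known from spermatogenesis, fell by 0.64 on the log2 scale (SE 0.27, adjusted p = 0.0336) from 2.66 ± 0.369 CPM, a call lost without control replicate 1, KD replicate 1 or KD replicate 2 (adjusted p = 0.127, 0.0875 and 0.116). Hspa14, a ribosome-associated HSP70, fell by 0.14 (adjusted p = 0.00326). Hspa12a, a distant relative of HSP70, was scarcely detected in control with 4, 2 and 1 counts and had 21, 19 and 22 counts in KD. The groups did not overlap, and the summed counts differed 8.73-fold (95% exact interval 3.99 to 22.6; edgeR log2 fold change 3.08, adjusted p = 0.000206). The HSP110 exchange factors Hsph1 (235 ± 10.6 to 299 ± 12.3 CPM, log2 fold change 0.35, adjusted p = 4.55e-10) and Hspa4 (0.33, adjusted p = 8.6e-11) rose, whereas Hspa4l fell by 0.18 (adjusted p = 0.000279). Hspbp1, a nucleotide exchange factor of HSP70, rose from 25.4 ± 1.96 to 39.8 ± 5.10 CPM (0.64, adjusted p = 4.47e-09).

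The cytosolic HSP90 genes had differences of opposite sign. Hsp90ab1, the constitutive HSP90β, was at 3000, 3100 and 3140 CPM in control and at 2320, 2390 and 2340 CPM in KD. The groups were well separated, with a log2 fold change of -0.39 ± 0.03 (adjusted p = 6.2e-15). Hsp90aa1, the inducible HSP90α, was at 1500, 1510 and 1510 CPM in control and at 1620, 1690 and 1630 CPM in KD, again without overlap but with a small increase of 0.13 ± 0.03 (adjusted p = 0.000131). The count ratio of Hsp90aa1 to Hsp90ab1 was accordingly 0.489 ± 0.00833 in control and 0.700 ± 0.0042 in KD. Lengths were not given in the table, so such a ratio can be compared between groups but not read as the relative level of the genes.

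**Figure D2:**
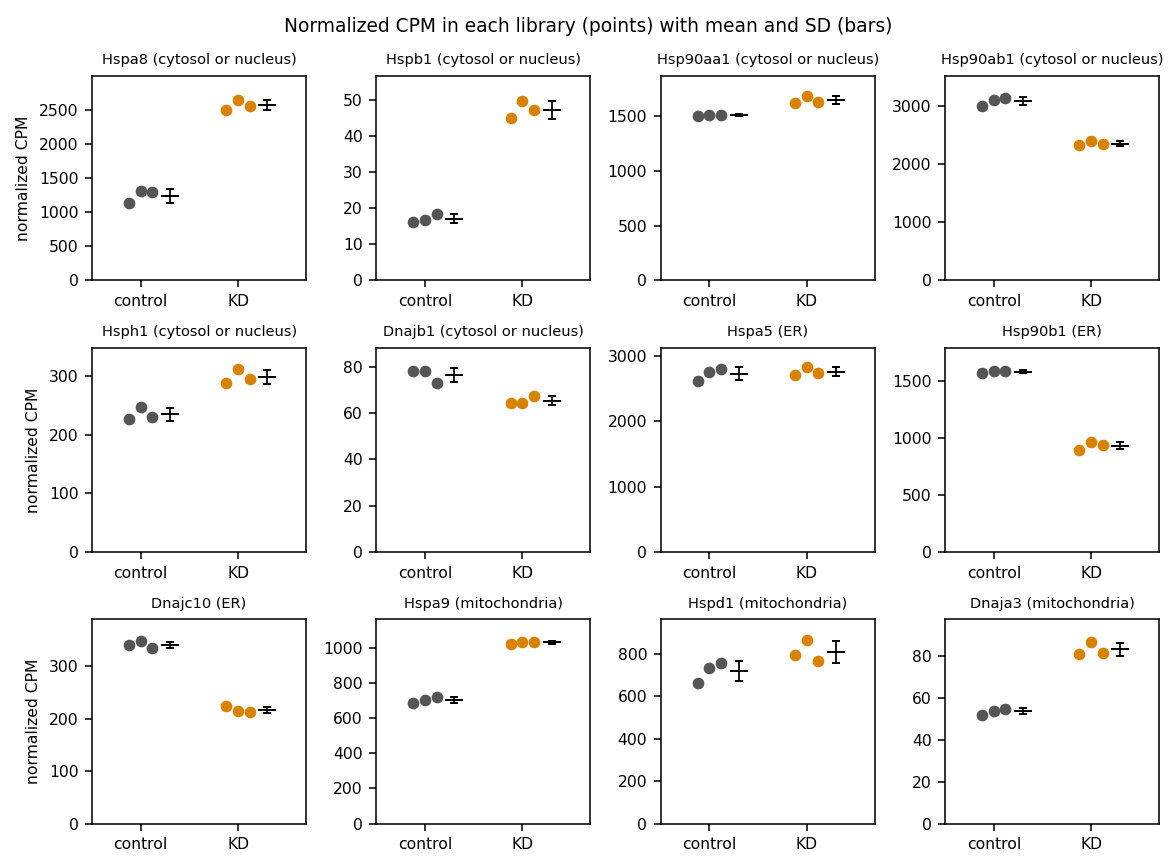
Normalized CPM (vertical axes, each from 0) of 12 members in the 3 control and 3 KD libraries, as points, with the mean and SD beside them. Hspa8 and Hspb1 were more than 2 times as high in KD, Hsp90b1 and Dnajc10 were lower, and the control and KD values of Hspa5 overlapped.

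Of the 5 small HSPs tested 3 rose and 2 fell, where 36.7% of all genes did so in each direction. Of these 5 genes 2 were called higher (against 10.2% of all genes) and none was called lower (against 9.98%). Hspb1 (HSP27), which caps actin filaments and holds unfolded protein, was at 16.1, 16.6 and 18.5 CPM in control and 44.8, 49.7 and 47.1 CPM in KD. Every KD library exceeded every control library, with a log2 fold change of 1.47 ± 0.07 (adjusted p = 3.46e-19). Hspb8, the partner of BAG3 in selective autophagy, rose from 137 ± 4.06 to 188 ± 3.03 CPM (0.46, adjusted p = 7.77e-13). Hspb7, best known from heart and skeletal muscle, had 1, 0 and 0 counts in control and 64, 65 and 90 counts in KD. It was at or next to 0 in control, so its fold is poorly bounded, at 216 for the summed counts with a 95% exact interval of 38.3 to 8560 (adjusted p = 7.33e-11). Hspb6, a small HSP of muscle, went the other way, from 20.3 ± 1.09 to 11.2 ± 1.49 CPM (log2 fold change -0.86, adjusted p = 1.69e-09). Hspb2, also a muscle HSP, fell by 0.63 (SE 0.26, adjusted p = 0.0286) from a low level, and its control and KD libraries overlapped. Its call was lost in DESeq2 (adjusted p = 0.0583) and without control replicate 2 or 3 or KD replicate 1 or 2 (adjusted p = 0.16, 0.125, 0.0734 and 0.108).

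DnaJ proteins of the A type rose in 3 of 4 cases (75.0%, against 36.7% of all genes). Dnaja2, a general HSP70 partner, rose from 163 ± 9.67 to 222 ± 3.04 CPM (0.44, adjusted p = 4.9e-12), and Dnaja4 rose from 8.35 ± 0.441 to 15 ± 1.09 CPM (0.84, adjusted p = 1.29e-08). Dnaja1, a general partner of HSP70 in the cytosol, had overlapping levels of 206 ± 7.38 and 197 ± 11.8 CPM (-0.06, adjusted p = 0.173). Of the 9 B-type genes tested 3 rose and 4 fell (33.3% and 44.4%, against 36.7% of all genes in each direction). The inducible Dnajb1 (HSP40) was at 78.2, 78.2 and 72.9 CPM in control and 64.4, 64.3 and 67.4 CPM in KD, and fell by 0.23 (SE 0.05, adjusted p = 0.000119). Dnajb4 fell by 0.77 (adjusted p = 1.24e-16) and Dnajb5 by 0.68 (adjusted p = 0.00164), while Dnajb6, an inhibitor of polyglutamine aggregation, fell by 0.11 (adjusted p = 0.0132, and 0.133 without KD replicate 2). Dnajb2 rose by 0.33 (adjusted p = 5.28e-05). The classical HSF1-inducible genes Hspa1b and Dnajb1 were thus lower in KD while Hspb1 and Hsph1 were higher.

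The C type, in which the J domain is joined to unrelated parts, had 24 tested genes across all compartments. Of these 8 rose and 10 fell (33.3% and 41.7%, against 36.7% of all genes in each direction). In the cytosol and nucleus Dnajc27, a small GTPase with a J domain, was called higher, at 9.42, 9.24 and 8.63 CPM in control and 25.9, 21.0 and 23.6 CPM in KD (log2 fold change 1.37 ± 0.10, adjusted p = 8.86e-15). Dnajc2, a ribosome-bound co-chaperone, rose by 0.39 (adjusted p = 2.01e-09). Dnajc9, a histone co-chaperone, fell by 0.72 (adjusted p = 2.97e-14), Dnajc8, a splicing-associated protein, fell by 0.37 (adjusted p = 1.21e-09) and Dnajc7, which binds both HSP70 and HSP90, fell by 0.22 (adjusted p = 3.07e-05). Dnajc5, the cysteine string protein of secretory vesicles, had 231 ± 3.36 and 233 ± 7.30 CPM (0.01, adjusted p = 0.82).

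In the ER, 5 of 14 members rose (35.7%), 6 fell (42.9%) and 3 did not pass, against 36.7% of all genes in each direction. None was called in either direction, against 10.2% of all genes called higher and 9.98% called lower. The median log2 fold change was -0.016. Hsp90b1 (GRP94), the HSP90 of the ER lumen, was at 1570, 1590 and 1590 CPM in control and 898, 961 and 938 CPM in KD. The control libraries lay close together and far above the KD libraries, and the gene fell by 0.76 on the log2 scale (SE 0.03, adjusted p = 6.17e-22). Hspa5 (BiP), the HSP70 of the same compartment and the usual partner of Hsp90b1, was at 2610, 2760 and 2800 CPM in control and 2710, 2830 and 2740 CPM in KD. These values overlapped, with a log2 fold change of 0.02 ± 0.03 (adjusted p = 0.609). The count ratio of Hsp90b1 to Hspa5 was 0.601, 0.575 and 0.569 in control and 0.332, 0.340 and 0.343 in KD. All KD ratios lay under all control ratios.

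The J proteins of the ER moved in both directions. Dnajc10 (ERdj5), a disulfide reductase, fell from 340 ± 6.34 to 217 ± 5.61 CPM (-0.65, adjusted p = 4.36e-18). Dnajc3 (p58IPK), which also restrains the kinase PERK, fell by 0.24 (adjusted p = 3.08e-05), and Dnajc14 fell by 0.35 (adjusted p = 8.46e-08). Hspa13, an HSP70 relative of the ER, fell by 0.26 (adjusted p = 6.66e-06) and the J protein Dnajc18 fell by 0.51 (adjusted p = 7.59e-06). Dnajb11 (ERdj3), a soluble BiP partner, rose by 0.35 (adjusted p = 1.1e-09), and Dnajc1 (ERdj1) rose from 41.2 ± 1.85 to 66.3 ± 1.65 CPM (0.68, adjusted p = 2.34e-13). Dnajc25, a membrane J protein, rose by 0.67 (adjusted p = 4.07e-07), Dnajb12 by 0.41 (adjusted p = 2.68e-08) and Dnajc16 by 0.37 (adjusted p = 2.01e-05). Dnajb9 (ERdj4), a target of XBP1, was at 15.1 ± 1.56 and 14.6 ± 0.71 CPM (-0.05, adjusted p = 0.661). Hence neither Hspa5 nor Dnajb9 passed the test.

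In the mitochondria 4 of 8 members rose (50.0%), 1 fell (12.5%) and 3 did not pass, against 36.7% of all genes in each direction. None was called, against 10.2% of all genes called higher and 9.98% called lower. The median log2 fold change was 0.16. Hspa9 (mortalin), the matrix HSP70 that also pulls proteins through the inner membrane, was at 688, 701 and 719 CPM in control and 1020, 1030 and 1030 CPM in KD. The groups were far apart, with a log2 fold change of 0.55 ± 0.03 (adjusted p = 9.25e-18). Its J protein partner Dnaja3 rose similarly from 53.6 ± 1.53 to 83.1 ± 3.29 CPM (0.63, adjusted p = 1.84e-13). Dnajc11, a protein associated with the inner membrane organizing complex, rose from 60.2 ± 3.97 to 91.9 ± 1.16 CPM (0.61, adjusted p = 4.85e-13).

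The chaperonin pair moved less. Hspd1 (HSP60) was at 663, 734 and 755 CPM in control and 795, 864 and 766 CPM in KD, without overlap but with KD replicate 3 close to control replicate 3, and rose by 0.17 (SE 0.04, adjusted p = 0.000224). Its cofactor Hspe1 (HSP10), transcribed from the same bidirectional promoter, was at 99.2 ± 6.46 and 103 ± 4.06 CPM with overlap (0.05, adjusted p = 0.347). Of the J proteins of the import motor, Dnajc19 fell by 0.36 (adjusted p = 0.000573) and Dnajc15 had 18.7 to 21.6 CPM in control and 21.3 to 22.9 CPM in KD (0.15, adjusted p = 0.093). Dnajc30 had 15.1 ± 0.599 and 13.3 ± 0.457 CPM (-0.19, adjusted p = 0.067).

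**Figure D3:**
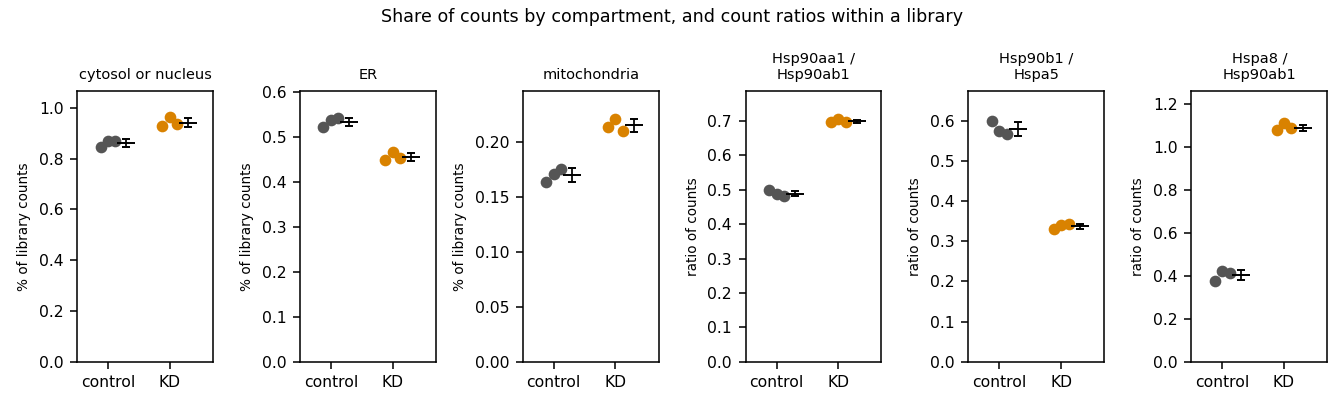
Percent of library counts in members of the cytosol or nucleus, ER and mitochondria, and count ratios of 3 gene pairs within a library, for 3 control and 3 KD libraries (points) with the mean and SD. The ER share was lower and the mitochondrial share higher in every KD library, and the Hspa8 to Hsp90ab1 ratio went from 0.404 ± 0.024 to 1.09 ± 0.0136.

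Summed over all members, chaperones took 1.59 ± 0.0301% of the counts of a control library and 1.65 ± 0.0333% of a KD library (SD, n = 3 each). The cytosolic and nuclear share was 0.861 ± 0.0145% in control and 0.942 ± 0.019% in KD, and the ER share was 0.533 ± 0.00966% and 0.456 ± 0.00913%. The mitochondrial share was 0.170 ± 0.00652% and 0.215 ± 0.00574%. None of the 3 shares overlapped between the groups. They rest mostly on a few abundant genes (Hspa8 and the HSP90 genes, Hsp90b1 and Hspa5, and Hspa9 and Hspd1), and no test was run on them.

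Of the 6 members not assigned to these compartments, 1 was called higher (16.7%, against 10.2% of all genes). Of the same 6, 2 were called lower (33.3%, against 9.98% of all genes). Hspbap1, which binds Hspb1, was at 11.3, 10.4 and 11.8 CPM in control and 37.8, 37.3 and 38.4 CPM in KD. The groups were tightly separated (log2 fold change 1.76 ± 0.08, adjusted p = 2.41e-20), so that both Hspb1 and its named binding partner were called higher. Dnajc28, a J protein of little known function, had 91, 95 and 68 counts in control and 5, 8 and 7 counts in KD. It was the most reduced member, with summed control counts 12.9 times those of KD (95% exact interval 8.17 to 21.5; edgeR log2 fold change -3.64, adjusted p = 4.65e-09). Dnajc22, a transmembrane J protein, was at 33.9, 37.9 and 30.4 CPM in control and 15.8, 17.7 and 15.9 CPM in KD (-1.05 ± 0.08, adjusted p = 1.35e-13). Without control replicate 2 its log2 fold change was -0.97, under the fold threshold, so that 1 member was called lower. Dnajc13, which works in endosomal sorting, rose by 0.39 (adjusted p = 1.02e-11), and Hspb11 and Dnajc4 did not pass (adjusted p = 0.0629 and 0.866).

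The remaining 7 members had too few counts to be tested. Besides Hspa1a they were Dnajc6 (auxilin), with 30 counts in all control libraries and 3 in all KD libraries, Dnajc12, with 39 and 12, Hspb9, with 24 and 20, and Dnajb13, Hspa12b and Hspa1l, which were close to 0 in both groups. For Dnajc6 the control counts were 10.2 times those of KD (95% exact interval 3.16 to 52.0), and for Dnajc12 they were 3.30 times (1.69 to 6.92). The intervals cover counting error only.

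To place the members among their partners, 4 lists of other proteostasis genes were counted in the same fit. For comparison with each list, 36.7% of all genes rose, 36.7% fell, 10.2% were called higher and 9.98% were called lower. Of 25 tested HSF factors and cytosolic co-chaperones 9 rose and 14 fell (none called, median log2 fold change -0.16). Their values ran from -0.84 (Cdc37, adjusted p = 1.07e-21) to 0.99 (Cryab, adjusted p = 7.75e-12). Cryab is a small HSP whose symbol the rule for members did not take in. Hsf1 itself rose from 70.4 ± 0.708 to 78.8 ± 4.52 CPM (0.16, adjusted p = 0.00379), and Bag3, an HSF1 target and the partner of Hspb8, fell from 96.0 ± 3.45 to 74.0 ± 1.91 CPM (-0.38, adjusted p = 6.82e-09). Hspb8 and Bag3 therefore had differences of opposite sign. In the cytosolic CCT chaperonin and its prefoldin partner 5 of 14 genes rose and 6 fell (none called, median 0.00051). By group, Cct2, Cct3, Cct4, Cct6a and Cct7 were the genes that rose, and Tcp1 and all the prefoldin genes except Pfdn4 were those that fell, although the call of Pfdn1 was lost in DESeq2 (adjusted p = 0.0826) and without any 1 library other than control replicate 2 (adjusted p = 0.053 to 0.165).

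Of 23 ER folding and unfolded protein response genes 6 rose and 13 fell, with none called higher and 2 called lower (median -0.21), where 36.7% of all genes rose, 36.7% fell and 9.98% were called lower. Both called genes serve disulfide formation. Ero1a, the oxidase, was at 1420, 1230 and 1210 CPM in control and 508, 463 and 469 CPM in KD (log2 fold change -1.42 ± 0.04, adjusted p = 1.62e-25). P4hb, the protein disulfide isomerase that it oxidizes, was at 1950, 1810 and 1850 CPM in control and 785, 770 and 756 CPM in KD (-1.28 ± 0.03, adjusted p = 3.92e-28). With Hsp90b1 and Dnajc10 these were the ER folding genes that fell by the widest margins beside Calr, Pdia3 and Pdia4, which had log2 fold changes of -0.79, -0.77 and -0.78. The 6 genes that rose were Sil1 (0.98, adjusted p = 1.62e-13), Atf4 (0.92, 8.43e-23), Atf6 (0.8, 2.6e-17), Ern1 (0.57, 7.24e-12), Sel1l (0.29, 6.79e-07) and Hyou1. Hyou1, the HSP110-like exchange factor of BiP, rose from 194 ± 10.6 to 233 ± 2.75 CPM (0.27, adjusted p = 1.76e-07). Eif2ak3 was among the 13 that fell (-0.43, adjusted p = 2.55e-05). Ddit3 (CHOP) fell by 0.17 (adjusted p = 0.0311), a call that was lost in DESeq2 (adjusted p = 0.0884) and on leaving out 1 of 4 libraries, either control replicate 1 or 3 or KD replicate 1 or 2 (adjusted p = 0.112, 0.175, 0.114 and 0.106).

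Of 10 mitochondrial folding and proteolysis genes 3 rose and 4 fell, where 36.7% of all genes did so in each direction. Of these genes 1 was called higher (against 10.2% of all genes), and the median was -0.032. Htra2, a protease of the intermembrane space, was at 39.9, 43.3 and 45.4 CPM in control and 89.4, 89.8 and 87.8 CPM in KD (log2 fold change 1.05 ± 0.05, adjusted p = 6.65e-19). Trap1, the mitochondrial HSP90, rose from 90.1 ± 1.45 to 135 ± 2.82 CPM (0.59, adjusted p = 9.8e-15), beside the increases of Hspa9 and Dnaja3. The matrix protease Lonp1 fell by 0.95 (adjusted p = 2.52e-22). The genes of this list thus went in both directions.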

How the data were processed

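Counts were deposited by the authors as 1 table of whole-number counts per gene for 6 libraries, without normalization. The submitters' processing notes name HISAT2, featureCounts, DESeq2 and build hg38, whereas the study's methods name HISAT2 and hg19. Both are human builds, whereas the symbols in the table were those of mouse gene models. The annotation, the strand setting and the treatment of reads with several matches were not given in the sources used here. Columns were assigned to samples by the names in the labels, and 0 columns of values were left unused. Totals were 36979221 to 38799331 counts, and 583 genes had no count.

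The filter filterByExpr, with a minimum count of 10 and a minimum of 15 in total, left 13497 genes. These were scaled by TMM and fitted in R 4.3.3 with edgeR 4.0.16, by group only, using the quasi-likelihood test and the Benjamini-Hochberg adjustment. A gene was called at an adjusted p under 0.05 and a fold change over 2. Normalized CPM relate each count to the TMM-scaled total, and standard errors follow from the log2 fold change and F. Exact intervals (95%) of summed counts are binomial. The procedure was tested on simulated data in which 200 genes were changed. At an adjusted p under 0.05 it recovered 188 of them, and 16 unchanged genes also passed. Many more genes differed in the real data, so the simulation does not measure the error rate there.

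Compartments were assigned by hand from general knowledge. The rule for members used symbols and no measured value, but the families, compartments and lists of partner genes and markers were chosen with earlier results of these data known. Genes were named if called, if of known role in a fixed list, or if among the 3 largest changes of their compartment. Others were named after their values were seen, as were the gene pairs set in ratios. Alternatives were other scalings, other count filters, leaving out each library, a replicate block, glmTreat, DESeq2 1.42.0 and, chosen after seeing the data, the sum of Hspa1a and Hspa1b. Same-numbered control and KD libraries did not deviate together.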

Additional observations from a re-analysis of the deposited data

How the results depend on the processing

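The number of members called lower (2) was 1 when at least 10 counts were required in every library, which removed Dnajc28, 7 with glmTreat at a fold of 1.5, and 23 with no fold threshold. The number called higher (6) was 4 when at least 10 counts were required in every library, which removed Hspa12a and Hspb7, 8 with glmTreat, and 26 with no fold threshold. Leaving out 1 library gave 1 to 3 members called lower and 6 to 7 called higher. Over all 13887 to 13919 genes then tested, 1257 to 1392 were called lower and 1405 to 1488 higher. Hspa1a was called higher without the low-count filter and in 4 of the 6 sets that left out 1 library. Medians by compartment were near 0 and moved with the settings. That of the cytosol and nucleus was -0.0318 with upper-quartile scaling, -0.0328 with no low-count filter, -0.0469 with at least 10 counts in every library, -0.0291 in DESeq2, and -0.0147 to 0.0336 on leaving out 1 library. That of the ER was -0.057 with upper-quartile scaling and -0.0666 to 0.0348 on leaving out 1 library. That of the mitochondria was 0.121 with upper-quartile scaling and 0.128 to 0.212 on leaving out 1 library. That of the other members was 0.0287 with at least 10 counts in every library. The sign of these 3 uncalled genes changed: Hspa5 was at -0.024 with upper-quartile scaling and -0.0026 with library totals, and at -0.014 to 0.039 on leaving out 1 library; Dnajb9 was at -0.12 to 0.031 and Hspe1 at -0.0017 to 0.091. Dnaja1 passed the test with upper-quartile scaling (adjusted p = 0.0193, -0.10) and without KD replicate 2 (adjusted p = 0.0438). The causes were not tested.

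No pairing of the samples by replicate number was seen. Each gene's group mean was subtracted first, and the remaining deviations were correlated between libraries. For same-numbered control and KD libraries these correlations were 0.0421, -0.0147 and -0.0214. The deviations of no control library correlated above 0.1 with those of any KD library. With 3 libraries per group, such values cannot exclude that same-numbered libraries were prepared together. With a replicate block 2 members were called lower, 6 higher, 23 fell and 26 rose at the adjusted p, as without it, and no call of a named gene changed. Depth limits genes with few counts such as Hspb7, Hspa12a and Dnajc28.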
